A study of Mus musculus with 18 samples.

Results

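Lamin B1 domains of young and old mouse liver were compared over their whole lists: 1621 domains called in livers of mice aged 3 months (young) and 1517 called in livers of mice aged 21 months (old), on 19 autosomes. These 3138 domains were all autosomal members of the pair of lists (3 young and 2 old domains on sex chromosomes were left aside), and they were part of 21560 regions in 6 lists of the series, which also cover H3K9me3 (histone H3 trimethylated at lysine 9) and the liver transcription factor Foxa2. Chromatin for the lamin B1 domains came from whole liver of male, wild type C57BL/6 mice, with no treatment named at either age. It was precipitated with a goat antibody to lamin B1 and sequenced (ChIP-Seq). The authors merged the 2 biological replicates of each age before calling domains, so each age is represented by 1 list of positions without signal, score or spread between animals. Differences below are differences between these lists, no test between ages was possible, and the intervals given for shares are 95% Wilson intervals that cover counting error only. The study's methods list fewer lamin B1 reads for old than for young livers, and age and depth cannot be told apart here. For H3K9me3 its supplement lists more aligned reads for old than for young livers.

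The nuclear lamina is a meshwork of A-type and B-type lamins under the inner nuclear membrane. Chromatin that touches it forms lamina-associated domains, which in mammals are mostly long, poor in genes and rich in A and T, and in which genes are mostly silent. Hdac3, a histone deacetylase that is tethered to the inner nuclear membrane, is known to restrain lipid synthesis genes in the liver. Domains were called here in windows of 10 kb, and both ends of a domain therefore lie on that grid.

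The lists differed in the base composition of the sequence they covered, so sequence is shown first for the longest domain found at 1 age only. Each run is 300 bases from the centre of its domain on the forward strand of mm10 (GRCm38.p6), and capitals mark CG dinucleotides. The young run, chr10:26759851-26760150, lies in an intron of Arhgap18, within the young domain chr10:26190001-27330000, which is 39.6% G or C over its whole length. The old run, chr9:61649851-61650150, lies between genes, 231 kb from Tle3 and 263 kb from Rplp1, within the old domain chr9:59920001-63380000, which is 46.5% G or C. The runs themselves hold 41.7% and 51.7% G or C, with 2 and 3 CG dinucleotides.
Young domain without an old partner: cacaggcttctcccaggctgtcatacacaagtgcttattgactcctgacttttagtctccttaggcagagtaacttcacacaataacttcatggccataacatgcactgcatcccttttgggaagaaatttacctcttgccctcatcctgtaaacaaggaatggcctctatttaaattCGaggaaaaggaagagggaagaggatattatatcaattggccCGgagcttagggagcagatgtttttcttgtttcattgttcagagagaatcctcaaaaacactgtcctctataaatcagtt
Old domain without a young partner: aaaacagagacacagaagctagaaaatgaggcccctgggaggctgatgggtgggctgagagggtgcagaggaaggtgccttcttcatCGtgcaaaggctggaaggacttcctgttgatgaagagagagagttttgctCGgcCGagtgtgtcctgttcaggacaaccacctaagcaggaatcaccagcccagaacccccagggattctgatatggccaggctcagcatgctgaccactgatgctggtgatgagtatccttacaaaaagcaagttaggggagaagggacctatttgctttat

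What was kept, gained and lost differed sharply by GC content, the percentage of G and C bases. In old livers the domains covered 0.278% of the windows with a GC content under 36% and 98.5% of those at 50% or more. In young livers the same classes were covered to 6.49% and 38.5%. Old domains thus took up nearly the whole GC-rich part of the autosomes, while young domains covered every class in part. The rise in old livers was steep between 40% and 46%: coverage was 20.4% of windows at 40 to 42%, 51.6% at 42 to 44% and 79.4% at 44 to 46%. The young list covered 16.1%, 22.99% and 29.04% of those classes.

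Retention of young domains followed the same order. Of the windows in young domains, 2.85% were also in an old domain at a GC content under 36%, 19.3% at 38 to 40%, 49.4% at 40 to 42%, 94.1% at 44 to 46% and 99.9% at 50% or more. Within the same class of GC content, the share found in an old domain was still higher for windows in a young domain than for windows outside one. Windows were not matched for GC content within a class. At 42 to 44% the old list held 78.6% of the former and 43.6% of the latter, and at 40 to 42% it held 49.4% and 14.8%. The GC classes were set after the values had been seen.

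H3K9me3 regions, whose age is known from the name of the list alone, also differed by GC content. The young list covered 37.5% of the windows under 36% and 8.67% of those at 50% or more, and the old list 2.11% and 55.1%. Coverage therefore varied with GC content for both antibodies and in young as well as old lists. For lamin B1 it rose with GC content in both lists, more steeply in the old one. For H3K9me3 it fell in the young list and rose in the old one. The part of base composition in the recovery or calling of these regions was not tested.

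**Figure D1:**
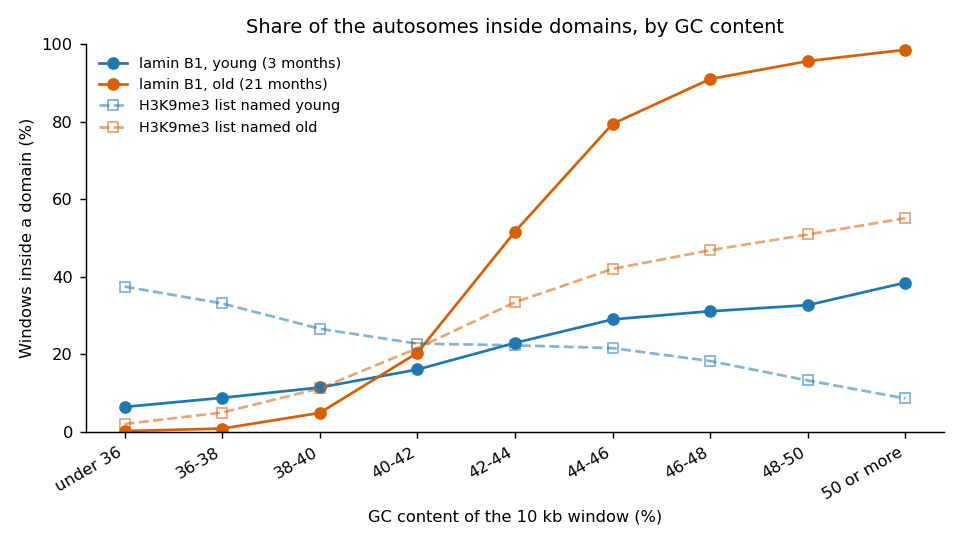
Percentage of the 10 kb windows of the autosomes that lie inside a domain (vertical axis) by the GC content of the window (horizontal axis), for the lamin B1 lists (filled circles) and the H3K9me3 lists (open squares), with young in blue and old in orange. Each point is 1 merged list without replicate error; old lamin B1 coverage climbs from 0.278% to 98.5%, while young coverage climbs from 6.49% to 38.5%.

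Over the whole of the autosomes, windows fell into 4 classes. Windows in both lists made up 13.5% of all windows, those in old domains only 24.3%, those in young domains only 5.45% and those in neither 56.8%. Windows in both lists had a GC content of 45.8% and windows in old domains only 45.9%, which is nearly the same composition. Windows in young domains only had 39.6% and windows in neither list 39.4%, again nearly the same. The classes differed more in genes: 21.0 start sites of protein-coding genes per Mb where both lists overlapped, 11.2 in old only, 6.97 in young only and 4.66 in neither, against 8.68 over all. Foxa2 sites of wild-type livers aged 12 weeks numbered 4.45 per Mb in both, 2.79 in old only, 2.07 in young only and 1.12 in neither, against 2.05 over all. In Zmpste24 mutants of that age the values were 5.28, 3.79, 4.001 and 2.62 per Mb, against 3.36 over all. The single-age classes were there in the reverse order, but close to each other.

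Most of the sequence found in the old list only adjoined sequence that was already covered in young livers. Of 598 Mb, 260 Mb (43.5%) lay at 1 edge of a stretch shared by both ages, 104 Mb (17.3%) lay between such stretches, and 234 Mb (39.1%) were whole old domains without a young partner. The reverse held for the 134 Mb in young domains only, of which 60.7% were whole domains without an old partner. These 501 young domains were short, with a median of 140 kb and a median GC content of 38.9%, and 284 of them (56.7%) held no start site of a protein-coding gene. Their median distance to the nearest old domain was 1030 kb, and 255 (50.9%) were more than 1 Mb away. The 592 old domains without a young partner had a median of 250 kb and a median GC content of 44.3%, 87 (14.7%) held no start site, and their median distance to a young domain was 400 kb.

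Many of the longest old domains spanned several young domains and the gaps between them. An old domain overlapped 2 or more young domains in 243 of 1517 cases (16.0%, 95% interval 14.3 to 17.95), 3 or more in 87 and 5 or more in 22. Domains that joined 2 or more had a median length of 1050 kb and held 39.6% of the old covered length, against medians of 305 kb for the 682 old domains over exactly 1 young domain and 250 kb for the 592 over none. They gathered 660 of the 1621 young domains (40.7%). Young domains supplied 45.7% of the length of the joined old domains, and sequence outside young domains the remainder. The opposite arrangement, a young domain over 2 or more old domains, was found in 206 of 1621 cases (12.7%, interval 11.2 to 14.4). The share of such splits depended on narrow gaps: with domains of both ages stitched across gaps of up to 100 kb it was 4.73%.

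As linked groups, 370 young domains matched 1 old domain each and no other, 405 young domains merged into 127 old domains, 90 young domains were broken into 199 old domains, and 255 young and 229 old domains formed 88 groups with several members at both ages. Total length in old relative to young livers was 2.28 times for merged groups, 1.79 times for exclusive pairs, 1.60 times for mixed groups and 1.36 times for broken ones. Covered length was larger in old livers in every kind of group, including those in which a young domain was broken up.

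The old domain with the most young domains, chr5:116100001-124650000, joined 15 of them, which were 50 to 720 kb long and lay 40 to 1170 kb apart (median 50 kb). It started 990 kb before the first young domain and ended 10 kb after the last. It holds Taok3, which encodes a protein kinase, Pebp1, which encodes an inhibitor of Raf signalling, and Hspb8, which encodes a small heat shock protein. The domain chr4:130730001-136470000 joined 13 young domains that already covered 68.3% of it, and its ends lay 30 and 10 kb inside theirs. Of its 115 start sites, 101 were in young domains too and 14 were not. Sdc3, which encodes a cell surface proteoglycan, and Epb41, which encodes a protein of the membrane skeleton, lie in it. The domain chr8:115810001-123540000 joined 10 young domains that covered 25.4% of it, with a median gap of 420 kb. Here 56 of 97 start sites were outside young domains, so it gained more genes than it kept. Cdh13, which encodes a cadherin, and Mlycd, which encodes malonyl-CoA decarboxylase, a regulator of fatty acid oxidation, lie in it. The young domain over the most old domains, chr11:85310001-87430000, was 2120 kb long and overlapped 7 of them. It holds the T-box genes Tbx2 and Tbx4 and the DNA repair genes Brip1 and Rad51c.

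The gaps between domains give the same event from the other side. A gap was counted as closed when 1 domain of the other age covered all of it. Of 1602 gaps in the young list, 458 were closed in the old list (28.6%, interval 26.4 to 30.9), and of 1498 gaps in the old list, 262 were closed in the young list (17.5%, interval 15.7 to 19.5). When at least 50% of a gap had to be covered, the shares were 46.6% and 22.4%, and among gaps of up to 500 kb they were 52.2% and 25%. Closing fell with width: old domains closed 264 of 395 young gaps of 40 to 100 kb (66.8%), 33.04% of those of 210 to 500 kb, 16.5% of those of 510 to 1000 kb and 4 of 310 above 2000 kb. Young domains closed 32.5%, 3.66% and 0.781% of the old gaps in the first 3 of these classes and none of 191 above 2000 kb. In each width class, the share of young gaps closed was higher than that of old gaps. Old domains covered 38.8% of the called bases of the autosomes (930 Mb) and young domains 19.5% (466 Mb). The part of this difference in gap closing was not tested. Gap widths are not alike in the lists: the median gap was 560 kb wide in the young list and 140 kb in the old one.

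**Figure D2:**
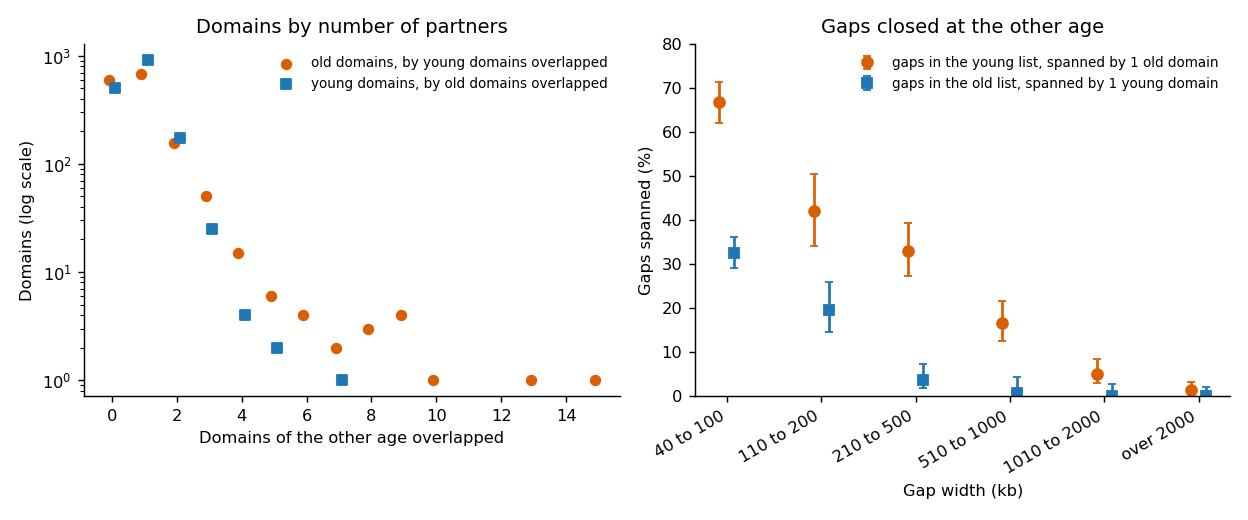
Left, number of domains (vertical log axis) by the number of domains of the other age that each overlaps (horizontal axis), for old (orange circles) and young (blue squares) domains. Right, percentage of gaps spanned by 1 domain of the other age (vertical axis, bars are 95% Wilson intervals) by gap width in kb (horizontal axis); old domains reach up to 15 young partners and young domains up to 7 old ones, and closing of young gaps falls from 66.8% to 1.29% with width.

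The widest closed gap, chr4:152330001-155060000, was 2730 kb with 25 start sites, among them Chd5, which encodes a chromatin remodeller, Kcnab2, which encodes a potassium channel subunit, and Trp73, a relative of Trp53. The next, chr11:118020001-120350000, was 2330 kb with 34 start sites and holds Timp2, an inhibitor of metalloproteinases, and Cbx2, a Polycomb protein gene. A gap of 2210 kb, chr12:105900001-108110000, held 3 start sites, of which 1 is that of Bcl11b, a T cell transcription factor gene. These genes were chosen for lying in the widest gaps and were named after their values were seen.

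Boundary shifts were measured in the 370 exclusive pairs, where each end has only 1 counterpart. A shift is positive when the old end lies outside the young domain, and the start is the end with the lower coordinate. The start moved outward in 186 pairs (50.3%), stayed in the same window in 71 and moved inward in 113 (30.5%), with a median of 10 kb. The end moved outward in 214 pairs (57.8%), stayed in 56 and moved inward in 100 (27.03%), with a median of 20 kb. These medians are taken over moves of both signs. Starts that moved outward did so by a median of 150 kb and ends by 130 kb, and starts and ends that moved inward did so by 50 and 80 kb. Outward moves of 100 kb or more were seen at 116 starts and 122 ends, inward moves of that size at 39 and 42. Summed over pairs, outward moves added 51.0 Mb at starts and 58.4 Mb at ends, while inward moves removed 10.5 and 9.95 Mb.

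Both ends moved outward in 121 pairs, both inward in 34 and neither in 19. In 107 pairs the ends moved in opposite senses, 61 with the start inward and the end outward and 46 the other way round, so that the domain was displaced rather than only widened. The sizes of the shifts at the ends of a pair were weakly related (Pearson r = 0.166, Spearman rho = 0.184 over 370 pairs, a description over domains that are not replicates). The old domain was longer in 239 pairs (64.6%), equal in 24 and shorter in 107, with a median ratio of 1.25. Sequence gained beyond the young ends had a GC content of 45.5%, and sequence given up had 40.2% at starts and 40.8% at ends, against 44.9% in the part kept. Start sites numbered 12.1 and 9.13 per Mb in gained starts and ends, 7.33 and 8.64 in those given up, and 18.9 in the part kept.

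**Figure D3:**
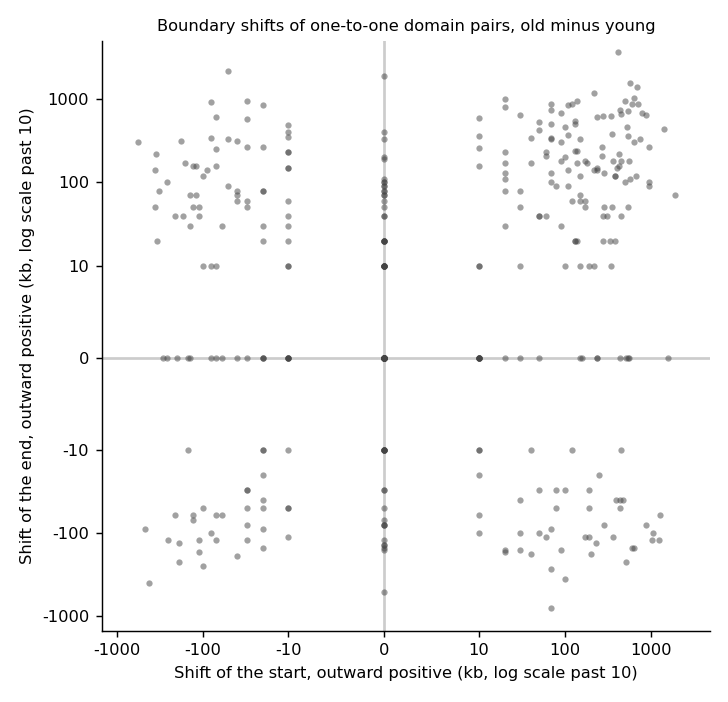
Shift of the start (horizontal axis) and of the end (vertical axis) in kb for the 370 pairs of 1 young and 1 old domain, positive when the old end lies outside the young domain; axes are linear up to 10 kb and logarithmic beyond. The upper right quadrant, with both ends outward, holds 121 pairs and the lower left 34.

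The largest outward shift at an end was 3750 kb, on chromosome 1, where the young domain chr1:88620001-88770000 was paired with chr1:88200001-92520000. The 30 start sites in the added segment include Per2, a core gene of the circadian clock, Hdac4, which encodes a histone deacetylase, and Ackr3, which encodes a chemokine receptor. On chromosome 6 the domain chr6:53150001-53390000 was extended by 2200 kb over 19 start sites, among them Aqp1, a water channel gene, and Nod1, an innate immune sensor gene. The largest outward shift at a start was 1950 kb, from chr6:128250001-128560000 to chr6:126300001-128630000, over 17 start sites that include Ccnd2, which encodes cyclin D2, and Fgf23, which encodes a hormone of phosphate balance. A start on chromosome 11 moved by 1620 kb over 44 start sites, among them Wnt3a, Flcn, which encodes folliculin, and Pemt, which makes phosphatidylcholine in the liver. Inward shifts were smaller. At starts they reached 570 kb on chromosome 1, where Pign and Relch left the domain, and 470 kb on chromosome 2, where Ism1 did. At ends they reached 800 kb on chromosome 13, with Atg10, which acts in autophagy, Ssbp2 and Acot12, an acetyl-CoA hydrolase gene, and 510 kb on chromosome 18, with Sema6a, a semaphorin gene.

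Coverage was higher in old than in young livers on 19 of 19 autosomes, but to very different extents. Young domains covered between 14.7% (chromosome 6) and 32.8% (chromosome 11) of the called bases of a chromosome, and old domains between 27.3% (chromosome 3) and 58.0% (chromosome 11). Chromosome 7 was covered to 15.5% in young and 46.7% in old livers, a difference of 31.2 percentage points and a ratio of 3.01. Chromosomes 3 and 16 differed by 8.66 and 8.97 points, at 18.7% against 27.3% and 20.5% against 29.5%. The number of domains went the other way on most chromosomes, being lower in old livers on 12 and higher on 7. Chromosome 4 held 118 young and 80 old domains, and chromosome 7 held 79 and 101.

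The order of the chromosomes in old livers was close to that of their GC content. Over 19 chromosomes, old coverage and GC content had a Pearson r of 0.964 (Spearman rho 0.956), and leaving out any 1 chromosome gave 0.949 to 0.981. For young coverage r was 0.518 (rho 0.365), and it rested on chromosome 11, without which it was 0.204. Coverage also followed gene density, with r = 0.834 in old and 0.508 in young livers, and GC content and gene density are themselves properties of the same chromosomes. The share of young sequence that was retained ran from 54.4% on chromosome 1 to 84.3% on chromosome 19 and had r = 0.782 with GC content. These correlations describe chromosomes of 1 list per age and carry no test.

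**Figure D4:**
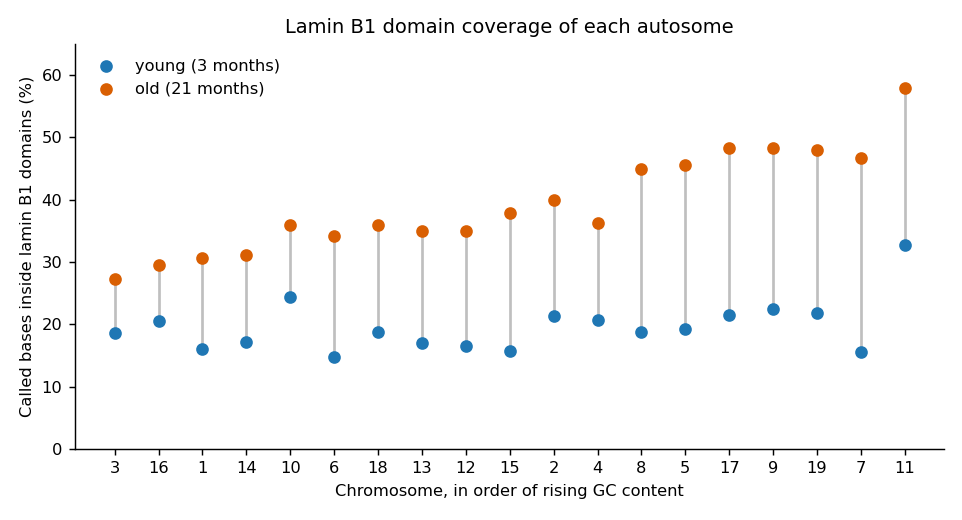
Percentage of the called bases of each autosome inside lamin B1 domains (vertical axis) in young (blue) and old (orange) livers, with chromosomes in order of rising GC content (horizontal axis) and a grey line joining the ages. Old points run from 27.3% on chromosome 3 at the left to 58.0% on chromosome 11 at the right, and each lies above its young point.

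A gene was counted as newly enclosed when its start site lay in an old domain and in no young one, and as released in the opposite case. Of 20807 protein-coding genes on the autosomes, 6970 start sites (33.5%) were inside domains at both ages, 6693 (32.2%) were newly enclosed, 935 (4.49%) were released and 6209 (29.8%) were outside at both. Released genes were 11.8% of the 7905 start sites in young domains, and newly enclosed genes were 49.0% of the 13663 in old domains. Released genes were longer, with a median of 36.2 kb against 19.4 kb for newly enclosed genes, 17.1 kb for genes inside at both ages and 13.4 kb for genes outside at both. Of the newly enclosed genes, 42.8% lay at 1 edge of shared sequence, 36.3% in old domains without a young partner and 20.9% between shared stretches. Of the released genes, 51.8% lay in young domains without an old partner. In the 110 kb around the start site, the median GC content was 46.5% for newly enclosed genes, 46.8% for genes inside at both ages, 40.8% for released genes and 40.4% for genes outside at both.

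The gene classes did not match what a lamina-associated domain is known to hold. Of 40 neuronal adhesion and synapse genes, which are long, silent in liver and lie in AT-rich sequence, 37 (92.5%, against 29.8% of all genes) were outside domains at both ages, among them Cntnap2 and Nrxn3, and the median GC content around the 40 start sites was 37.3%. All 326 vomeronasal receptor genes and 985 of 1087 olfactory receptor genes were outside at both ages as well. Cytosolic ribosomal protein genes, which every cell expresses, were in young domains in 42 of 72 cases (58.3%, against 37.99% of all genes) and in old domains in 68 (94.4%, against 65.7%). The domains are therefore named here only by the antibody with which they were called. In whole liver, signal from different cell types cannot be told apart.

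Promoters are shown for 3 genes of liver metabolism from different classes, as 250 bases before to 50 bases after the RefSeq start (GRCm38.p6), on the strand of the gene, with CG dinucleotides in capitals. Fasn, the fatty acid synthase gene, was newly enclosed (chr11:120824498-120824797, reverse strand). Pparg, a nuclear receptor gene that drives fat storage, was released (chr6:115360894-115361193, forward strand). Alb, the albumin gene, was outside at both ages (chr5:90460620-90460919, forward strand).
Fasn: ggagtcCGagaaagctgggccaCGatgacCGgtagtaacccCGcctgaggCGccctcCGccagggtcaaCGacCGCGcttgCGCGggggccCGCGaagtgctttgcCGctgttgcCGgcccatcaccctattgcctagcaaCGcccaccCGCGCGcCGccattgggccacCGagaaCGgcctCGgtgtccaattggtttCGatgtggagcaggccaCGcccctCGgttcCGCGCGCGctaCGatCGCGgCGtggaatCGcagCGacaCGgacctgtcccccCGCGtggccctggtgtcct
Pparg: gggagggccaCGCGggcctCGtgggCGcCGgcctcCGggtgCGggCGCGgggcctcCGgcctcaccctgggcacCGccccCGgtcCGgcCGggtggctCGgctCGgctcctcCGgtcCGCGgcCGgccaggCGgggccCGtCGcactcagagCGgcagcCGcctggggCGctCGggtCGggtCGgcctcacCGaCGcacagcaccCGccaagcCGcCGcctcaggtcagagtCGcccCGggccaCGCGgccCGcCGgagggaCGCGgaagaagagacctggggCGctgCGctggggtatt
Alb: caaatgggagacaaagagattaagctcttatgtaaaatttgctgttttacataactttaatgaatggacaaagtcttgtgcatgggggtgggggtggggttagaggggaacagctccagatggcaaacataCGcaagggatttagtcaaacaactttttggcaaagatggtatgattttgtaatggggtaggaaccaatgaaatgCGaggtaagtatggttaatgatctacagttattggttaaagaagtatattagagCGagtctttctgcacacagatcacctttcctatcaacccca

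The GC content of these promoters was 69.3% for Fasn, 80.3% for Pparg and 40% for Alb. Over the 110 kb around the start it was 51.1%, 40.6% and 40.1%. The promoters of Fasn and Pparg were thus both rich in CG dinucleotides, with 39 and 44 in 300 bases against 3 for Alb, while the surroundings of Pparg were as AT-rich as those of Alb.

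Most genes for lipid synthesis and storage were newly enclosed. Of 35, 20 (57.1%, against 32.2% of all genes) were newly enclosed and 13 (37.1%, against 33.5%) were inside at both ages. Of the rest, 1 (2.86%, against 4.49%) was released and 1 (2.86%, against 29.8%) was outside at both. Plin3, Plin4 and Plin5 lie in the same old domain of 1430 kb, and Scd1 and Scd2 share another, so the 20 genes are not independent. The newly enclosed genes include Fasn in an old domain of 6800 kb, Scd1, which desaturates fatty acids, in a domain of 2740 kb, and Srebf1, which encodes the main activator of lipogenic genes, in a domain of 1790 kb. Gpam, which starts triglyceride synthesis, and the elongase gene Elovl5 belonged to the same class. Acaca and Acly, which act before Fasn in the pathway, were inside at both ages by their start sites, Acaca not with the whole gene, and the domain around Acly was longer in old livers (340 against 3590 kb). Mttp, which loads lipid onto lipoproteins, was the released gene, from a young domain of 630 kb, and Cd36, a fatty acid transporter gene, was outside at both ages. The median GC content around the 35 genes was 48.1%, against 44.5% around all protein-coding genes, and its part in the count was not tested.

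Of 28 genes for fatty acid oxidation and ketogenesis, 17 (60.7%, against 33.5% of all genes) were inside at both ages and 6 (21.4%, against 32.2%) were newly enclosed. None was released and 5 (17.9%, against 29.8%) were outside. Cpt1a, which admits fatty acids to mitochondria, kept the same domain of 750 kb. Acadm, an acyl-CoA dehydrogenase gene, was newly enclosed, in a domain of 1400 kb. The median GC content around the 28 genes was 46.1%, against 44.5% around all protein-coding genes, and its part in the counts was not tested.

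Of 27 nuclear receptor and cofactor genes, 11 (40.7%, against 33.5% of all genes) were inside at both ages and 9 (33.3%) were newly enclosed. Another 3 (11.1%, against 4.49%) were released and 4 (14.8%, against 29.8%) were outside. The newly enclosed share was near that of all genes, 32.2%. Ppara, which activates fatty acid oxidation, lay in an old domain of 1990 kb without any young partner, and Rora, a circadian regulator, lay with its whole length of 734 kb in an old domain of 860 kb. The released genes were Pparg (young domain of 1040 kb), Nr2f1 (250 kb) and the corepressor gene Ncor1 (990 kb). Thrb, Nr3c1, which encodes the glucocorticoid receptor, and Hnf4g were outside at both ages. The median GC content around the 27 genes was 45.5%, against 44.5% around all protein-coding genes, and its part in the counts was not tested.

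Hepatocyte transcription factor genes were mostly inside domains at both ages, 13 of 16 (81.25%, against 33.5% of all genes), among them Hnf4a, Foxa1, Foxa3 and Cebpa. The domain around Hnf4a was longer in old livers (790 against 1800 kb), whereas that around Foxa1 was shorter (400 against 80 kb). Prox1 and Gata4 were the 2 newly enclosed genes (12.5%, against 32.2% of all genes), in old domains of 2680 and 1700 kb. Foxa2 was the 1 gene outside at both ages (6.25%, against 29.8%), and no gene of this list was released. Of 29 genes for secreted liver proteins, 4 (13.8%, against 33.5% of all genes) were inside at both ages and 17 (58.6%, against 32.2%) were newly enclosed. None was released and 8 (27.6%, against 29.8%) were outside. The apolipoprotein genes Apoa1, Apoa4, Apoa5 and Apoc3 are neighbours on chromosome 9 in the same old domain of 2360 kb, so the 17 genes are not independent. Alb and Afp, which are also neighbours, Apob and the fibrinogen genes Fga, Fgb and Fgg were outside at both ages. The median GC content was 46.3% around the 16 transcription factor genes, 45.8% around the 29 secreted protein genes and 44.5% around all protein-coding genes. Its part in these counts was not tested.

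Of 32 genes for xenobiotic and bile acid metabolism, 15 (46.9%, against 29.8% of all genes) were outside at both ages, among them Cyp3a11 and Cyp7a1, the rate-limiting enzyme of bile acid synthesis. Another 9 (28.1%, against 32.2%) were newly enclosed, including Cyp2e1 and Cyp8b1, and 5 (15.6%, against 33.5%) were inside at both ages. Sult1b1, Ephx1 and Bche were the 3 released genes (9.38%, against 4.49%). The start site of Bche alone was in the young domain, not the whole gene. The median GC content around the 32 genes was 42.9%, against 44.5% around all protein-coding genes, and its part in the counts was not tested. Of 28 cell cycle and senescence genes, 15 (53.6%, against 33.5% of all genes) were inside at both ages, including Cdkn1a, Trp53 and Rb1, and 6 (21.4%, against 32.2%) were newly enclosed, including Ccnd1 and Myc. By whole gene, Cdkn1a was newly enclosed and Rb1 released. Cdkn2c, Ccna2 and Atm were the 3 released genes (10.7%, against 4.49% of all genes). Another 4 (14.3%, against 29.8%) were outside at both ages, among them the senescence genes Cdkn2a and Cdkn2b. Around these 28 genes the median GC content was 44.65%, and its part in the counts was not tested either.

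Genes of the lamina itself were found in all 4 classes, in shares near those of all genes for newly enclosed and released members. Of 24 genes of the nuclear lamina and envelope, 11 (45.8%, against 33.5% of all genes) were inside at both ages and 9 (37.5%, against 32.2%) were newly enclosed. Of the rest, 1 (4.17%, against 4.49%) was released and 3 (12.5%, against 29.8%) were outside. The B-type lamin genes Lmnb1 and Lmnb2 and the lamin B receptor gene Lbr were newly enclosed, Lmnb1 in an old domain of 470 kb and Lbr in one of 180 kb. Lmna, which encodes the A-type lamins, was inside at both ages, in domains of 290 and 1400 kb. Lemd3, which encodes an inner membrane protein, was released, and Zmpste24, which encodes the protease that processes prelamin A, was outside. Of 22 genes for H3K9 methylation and heterochromatin, 5 (22.7%) were released, against 4.49% of all genes: Setdb2, Mecom, Cbx5, which encodes heterochromatin protein HP1 alpha, and the demethylase genes Kdm4c and Kdm3a. Of Mecom, the start site was in the young domain and not the whole gene. In this list 8 (36.4%, against 33.5%) were inside at both ages, 9 (40.9%, against 32.2%) were newly enclosed and none was outside, against 29.8%. The median GC content was 45.15% around the 22 genes and 44.5% around all protein-coding genes. Around the 5 released genes it ran from 39.6% for Setdb2 to 43.8% for Mecom, and the median around all released genes was 40.8%. The part of GC content in these counts was not tested.

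Keratin and Hox genes lie in clusters, so their members are not independent. Of 49 keratin genes, 45 (91.8%, against 32.2% of all genes) were newly enclosed and 4 (8.16%, against 33.5%) were inside at both ages. The median GC content around the 49 genes was 48.2%, and old domains covered 95.6% of all windows at 48 to 50%. The part of GC content in the count was not tested. Of 39 Hox genes, 30 (76.9%, against 33.5%) were inside at both ages and 9 (23.1%, against 32.2%) were newly enclosed. Of 383 Zfp zinc finger genes, 131 (34.2%, against 33.5% of all genes) were inside at both ages and 91 (23.8%, against 32.2%) were newly enclosed. Another 31 (8.09%, against 4.49%) were released and 130 (33.9%, against 29.8%) were outside.

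**Figure D5:**
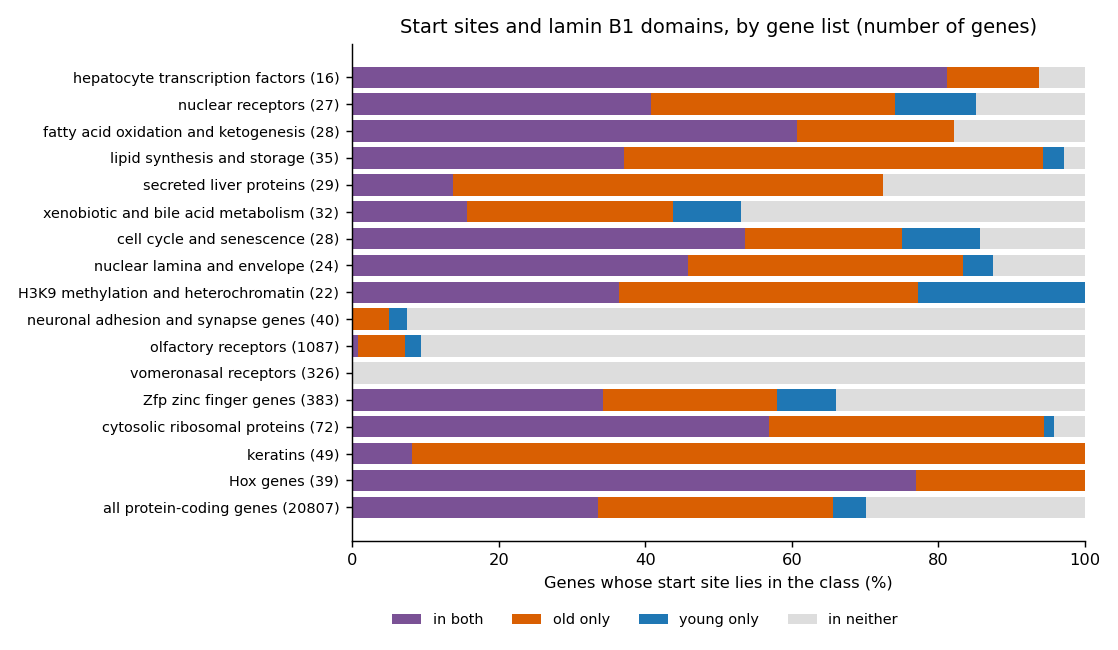
Percentage of the genes in each list (number in brackets) whose start site lies in domains at both ages (purple), in old domains only (orange), in young domains only (blue) or in neither (grey). Old-only segments are widest for keratins, where 45 of 49 genes were newly enclosed, and for secreted proteins and lipid synthesis, while all vomeronasal receptors lie in neither.

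The longest domains found at 1 age only show which genes changed class as whole regions. After the domain on chromosome 10, the longest young domain without an old partner was chr1:9510001-10330000, of 820 kb and 2360 kb from the nearest old domain, with 12 start sites that include Mybl1, Sgk3, a kinase gene, and Cops5, a subunit gene of the COP9 signalosome. The next, of 670 kb each, were chr2:20320001-20990000 with Etl4 and Arhgap21 and chr4:87640001-88310000 with Mllt3 and Focad, and chr4:81280001-81840000, of 560 kb, held Mpdz. Their GC content lay between 39.6% and 42.2%. The longest old domain without a young partner, on chromosome 9, held 20 start sites, among them Tle3, a corepressor gene, Rplp1, a ribosomal protein gene, and Map2k5, a kinase gene. It was followed by chr1:188680001-191360000 (2680 kb) with Prox1 and Atf3, chr13:72020001-74220000 (2200 kb) with the Iroquois genes Irx2 and Irx4 and Tert, chr7:143250001-145340000 (2090 kb) with Kcnq1, Cdkn1c and Ccnd1, and chr15:85130001-87120000 (1990 kb) with Ppara and Wnt7b. Their GC content lay between 45.1% and 49.1%.

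Some long genes changed class as whole units, in both directions. The longest genes lying wholly in windows of old domains only were Wwox (913 kb), Tenm4 (740 kb), Alk (736 kb), Rora and Nav2 (701 kb), out of 5985 such genes. The longest lying wholly in windows of young domains only were Pcca (357 kb), which encodes a subunit of propionyl-CoA carboxylase, Ankrd44 (281 kb), Mllt3 (263 kb), Ssbp2 (243 kb) and Strbp (221 kb), out of 592.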

How the data were processed

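Per the labels and the study's methods, the authors mapped ChIP-Seq reads with BWA (mm10), discarded duplicates and reads without a unique position, pooled the 2 replicates of an age and called lamin B1 domains with Epic, an implementation of SICER (window 10 kb, gaps of up to 3 windows). The input was a mixture of chromatin from young and old livers. The deposited lists hold genome positions and no counts, signal, score or fold, so depth per replicate is unknown here. Ages of the lists come from their names, and the caller of the H3K9me3 regions is not given in the sources used here. There were 0 columns of per-sample values left aside.

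Domains were linked at an overlap of 1 bp. Genes came from GENCODE M21 and sequence from GRCm38.p6. The members, gene lists and GC classes were chosen with earlier results of these data known. Named genes are those touched by the 5 longest domains at 1 age only and by the 3 old domains with the most young partners, those in the 2 largest shifts of each kind, up to 6 members per class of each list in list order, and the 5 longest genes wholly gained or released; genes in the 3 widest closed gaps and in the young domain with the most old partners were added. Some genes that this rule names are not reported here. Promoter sequence was not compared between classes, because 16096 of 20807 genes (77.4%) had an entry, under the 80% needed. Linking, gap and shift code was tested on simulated domains. Python 3.11.15, numpy 2.4.6, pandas 2.3.3, scipy 1.17.1, statsmodels 0.14.6 and matplotlib 3.10.9 were used. Alternatives are given in the closing section.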

Additional observations from a re-analysis of the deposited data

How the results depend on the processing

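No value changed sign under any alternative that was computed, but shares, counts and ratios cannot do so. The median shift of starts was 10 kb as reported and 0 kb in pairs that overlapped by at least 50%. Of 66 alternative values with all chromosomes, 48 stayed within 1.5 times the reported value, or inside its 95% interval for shares and medians, and 18 did not. With an overlap of at least 50% of the shorter domain, old domains over 2 or more young were 11.1%, old domains over none 45.2%, young domains over 2 or more old 5.12% and young domains over none 33.9%. With domains stitched across gaps of up to 100 kb, old domains over none were 32.9%, young domains over 2 or more old 4.73% and young domains over none 34.7%. Stitching thus turned the order of the shares over none, which were 39.0% of old and 30.9% of young domains without it. With at least 50% of a gap covered, 46.6% of young and 22.4% of old gaps were closed, and among gaps of up to 500 kb 52.2% and 25%. Starts moved outward in 56.3% of all linked groups, and inward in 36.3% of pairs that overlapped by at least 50%. With whole genes, 30.04% were inside at both ages. With all annotated genes, 29.5% were newly enclosed, 4.997% released and 25.1% inside at both ages. Without start sites within 10 kb of an edge, 3.87% were released. Covered length and the ratio of median lengths stayed within these limits without domains under 50 or 100 kb and with chromosome X, as did correspondence and window classes without domains under 50 kb, and chromosome coverage over whole chromosome lengths.

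With each chromosome left out in turn, 507 of 513 values stayed within the limits. Genes inside at both ages ranged from 32.1% to 34.3%, released genes from 4.19% to 4.82%, and the correlation of young coverage with GC content from 0.204, without chromosome 11, to 0.643. The median shift of starts ranged from 0 to 10 kb.

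No paired analysis was possible because the replicates of each age were merged before the domains were called. For the same reason no replicate was left out, and the lists carry no scores for a stricter threshold. The comparison of promoters by class was not run. The lists are 1 per age, so they do not show how far domains vary between mice of the same age, and the depth of each replicate is not known from them.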
